A study of Mus musculus with 90 samples.

Results

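The nuclear genes that encode the mitochondrial respiratory chain and ATP synthase were examined in the livers of outbred mice dosed with zileuton, an inhibitor of 5-lipoxygenase. Members were every gene of the deposited table whose symbol starts with Ndufa, Ndufb, Ndufc, Ndufs, Ndufv, Uqcr, Cox4, Cox5, Cox6, Cox7, Cox8 or Atp5, together with Sdha, Sdhb, Sdhc and Sdhd. This rule took 90 of the 18223 genes in the table and used no measured value. The rule by symbol also took 8 complex I assembly factors (the Ndufaf genes) and the coupling factor Atp5s, which are counted apart from the subunits below. All 90 animals were female Diversity Outbred (J:DO) mice, a stock in which each animal is genetically distinct, aged 6 to 20 weeks. Zileuton at 300 mg per kg was instilled by mouth daily for 7 days in 49 mice, of which 34 had agouti, 6 black and 9 white coats. Sterile distilled water was given in the same way to 41 mice, of which 29 had agouti, 6 black and 6 white coats. Each library was made from the liver of 1 animal, so p-values measure the spread between animals.

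The respiratory chain passes electrons from NADH through complex I, or from succinate through complex II, to coenzyme Q, then through complex III and cytochrome c to complex IV, where oxygen is reduced. Complexes I, III and IV pump protons across the inner mitochondrial membrane, and complex V, the ATP synthase, uses the return flow to make ATP. Liver relies on this machinery for gluconeogenesis, urea synthesis and fatty acid oxidation, and a few subunits exist as isoforms with liver and muscle versions. The subunits encoded in mitochondrial DNA are not analysed here, because the table held 0 mitochondrially encoded genes.

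Library totals of the estimated counts ran from 12664579 to 38865109 with zileuton and from 13064928 to 41360187 with vehicle. The members took 1.31% ± 0.12 of all counts in zileuton livers and 1.26% ± 0.12 in vehicle livers (SD, n = 49 and 41). Levels are given as CPM, the counts of a gene relative to its library's total, after TMM scaling. Differences were tested with edgeR's quasi-likelihood F test over the 13248 genes that passed a filter on low counts, with p-values adjusted by Benjamini and Hochberg's method and calls made below 0.05. Of the members, 87 passed the filter, and the muscle or lung isoforms Cox4i2, Cox6a2 and Cox8b did not. The animals carry numbers in 8 runs of 50, and within each run the zileuton animals held positions 25 to 50 and the vehicle animals positions 13 to 20, so position and treatment cannot be told apart. Transcripts of the circadian clock differed between the arms: 11 of 11 genes of the Per and Dbp phase were higher with zileuton and 5 of 5 of the Bmal1 phase were lower, as in Dbp at 75.3 ± 46.1 CPM with zileuton and 15.8 ± 33.4 CPM with vehicle. Hepatocyte markers were abundant in every library, with a summed level of at least 70698 CPM in zileuton livers and 86339 CPM in vehicle livers. Of these 7 markers 5 were called lower and 1 higher with zileuton, where 14.8% of all genes tested were called lower. For other cell types, 1 of 4 tested markers was called lower in each of endothelium, cholangiocytes, stellate cells and lymphocytes. The 1 pancreas marker tested was lower, and 0 of 5 Kupffer cell markers and 0 of 1 tested skeletal muscle markers were called. Their part in the members' results was not tested. In whole tissue, fewer cells of a type and less RNA per cell cannot be told apart.

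Most of these genes were not called between the arms, and most of the calls were of small size. Of the 87 tested members, 13 were called higher, 1 was called lower and 73 were not called, which is 16.1% called against a background of 29.3% of all genes tested. In the upward direction alone, the 13 of 87 were similar to the background of 14.4%. In the downward direction, the 1 of 87 stood against a background of 14.8%, so the lower share of calls lay in that direction. The median log2 fold change of the tested members was 0.041, and 67 of the 87 values were above 0. Over all genes tested the median was −0.0099, and 47.3% of values were above 0. Few falls were also seen among 73 cytosolic ribosomal protein genes with a mean of at least 20 CPM. Of these, 22 were called higher and 1 lower, with a median log2 fold change of 0.098. Of 78 mitochondrial ribosome genes, 10 were called higher and 6 lower. Among genes with a mean of at least 20 CPM, 16% of 75 members and 37.5% of 5255 genes were called. The lower share of calls depended on the libraries used. Without the 9 libraries of lowest total, 32.2% of the members and 31% of all genes tested were called.

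The data bounded most of the differences closely. The 95% interval of the fold change lay within 20% of no change, with equal bounds on the log2 scale, for 79 of the 87 members, a share of 90.8%, against 55.3% of all genes tested. The 8 members outside that bound were Cox6b2, Cox7a1, Cox7c, Ndufa10, Ndufab1, Ndufb3, Ndufs5 and Uqcr10. At a bound of 25% only Cox6b2, Cox7a1, Cox7c and Ndufs5 were outside it. The median SE of the log2 fold change was 0.05 for the members and 0.06 for all genes. The members are short and abundant transcripts, with a median length of 934 bases against 3063 bases over all genes tested.

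**Figure D1:**
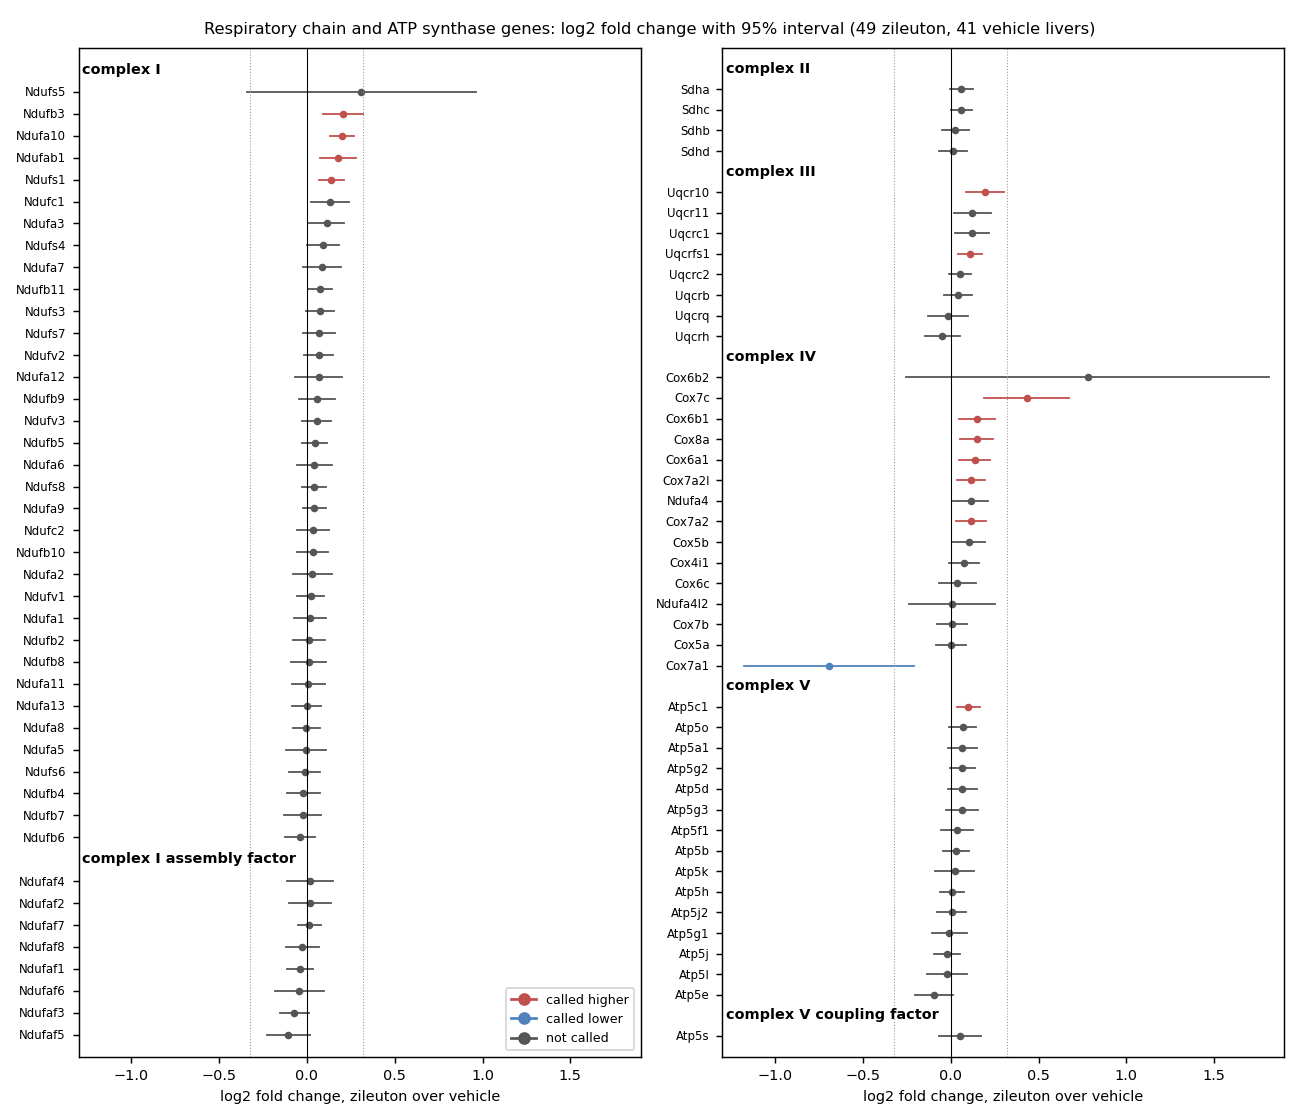
Log2 fold change (x axis, zileuton over vehicle) with its 95% interval for the tested members, grouped by complex, with 1 that was not called left out. The 13 genes called higher are in red, the 1 called lower in blue and those not called in grey, and dotted lines mark a change of 25%. Only Ndufs5, Cox7c, Cox6b2 and Cox7a1 have intervals that cross a dotted line.

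Complex I, the NADH dehydrogenase, had 4 of 36 subunits called higher and none called lower, a share of 11.1%, with a median log2 fold change of 0.04. The lowest adjusted p of all members belonged to Ndufa10, an accessory subunit of the membrane arm (chromosome 1, 92439010 to 92473860, mm10). Ndufa10 had a lowest, median and highest level of 81.6, 106 and 127 CPM in zileuton livers, and 73.9, 91.7 and 118 CPM in vehicle livers. The ranges overlapped over most of their width, but 46 of 49 zileuton livers were above the vehicle median. The log2 fold change of Ndufa10 was 0.20 ± 0.03 (SE), an increase of 14.8% (edgeR, adjusted p = 1.52e-06). The zileuton mean was also the higher in 8 of 8 runs of animal numbers, by 0.08 to 0.31 on the log2 scale.

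The other complex I calls were Ndufb3, Ndufab1 and Ndufs1. Ndufb3, a small accessory subunit, ran from 35.5 to 105 CPM with a median of 52.8 in zileuton livers, and from 33.4 to 62.2 CPM with a median of 47.7 in vehicle livers. The arms overlapped at the low end, and the highest zileuton livers lay above every vehicle liver. Its log2 fold change was 0.21 ± 0.06 (edgeR, adjusted p = 0.00414). Ndufab1 encodes the mitochondrial acyl carrier protein, which serves both complex I and mitochondrial fatty acid synthesis. It averaged 26.7 ± 5.35 CPM with zileuton and 23.6 ± 3.2 CPM with vehicle, a log2 fold change of 0.18 ± 0.05 (edgeR, adjusted p = 0.00503). Ndufs1, the largest core subunit, which carries iron-sulfur clusters, had a lowest, median and highest level of 110, 140 and 191 CPM with zileuton, and 91.0, 125 and 159 CPM with vehicle. The arms overlapped, and 39 of 49 zileuton livers were above the vehicle median, with a log2 fold change of 0.14 ± 0.04 (edgeR, adjusted p = 0.00145).

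Subunits beside these in the same enzyme did not pass the test. The core subunits Ndufs3, Ndufs7, Ndufs8, Ndufv1 and Ndufv2 had log2 fold changes between 0.02 and 0.07. Other uncalled subunits had larger estimates. With 1 animal left out at a time, Ndufc1 lay between 0.12 and 0.14, and edgeR called it in 27 of 90 fits. Ndufa3 lay between 0.09 and 0.13 and was called in 3 of 90. The most abundant complex I transcript per length, Ndufb9, stood at 254 ± 39.97 CPM per kb with zileuton and 245 ± 42.6 CPM per kb with vehicle. Ndufa6 followed at 198 ± 29.9 CPM per kb with zileuton and 192 ± 37.3 CPM per kb with vehicle, and the mean ± SD ranges of the pair overlapped in both arms. The 8 Ndufaf assembly factors, which help build complex I and are not part of the finished enzyme, had 0 called by edgeR and a median log2 fold change of −0.03. DESeq2 and limma-voom also called 0 of them, and 0 had an unadjusted p under 0.05. Their levels per length lay between 5.16 and 20.6 CPM per kb in vehicle livers, where the median of the complex I subunits was 77.3 CPM per kb.

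Complex II, succinate dehydrogenase, links the tricarboxylic acid cycle to the chain, and 0 of its 4 subunits were called by edgeR, DESeq2 or limma-voom. Only Sdhc had an unadjusted p under 0.05 in edgeR. Sdha, the flavoprotein, had a lowest, median and highest level of 393, 488 and 596 CPM with zileuton, and 348, 469 and 619 CPM with vehicle. The vehicle range enclosed the zileuton range, and the log2 fold change was 0.06 ± 0.03 (edgeR, adjusted p = 0.168). Sdhb, the iron-sulfur subunit, was at 0.03 ± 0.04, and the membrane anchors Sdhc and Sdhd were at 0.06 ± 0.03 and 0.01 ± 0.04 on the same scale. Among members of at least 20 CPM, Sdhc varied least between vehicle animals, with a coefficient of variation of 9.86% in zileuton livers and 8.91% in vehicle livers.

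Complex III, the cytochrome bc1 complex, had 2 of 8 subunits called higher, a share of 25.0%, with a median log2 fold change of 0.08. Uqcr10, a small subunit without a redox centre (chromosome 11, 4701973 to 4704342, mm10), had a lowest, median and highest level of 80.3, 139 and 188 CPM with zileuton, and 84.7, 119 and 175 CPM with vehicle. The lowest and highest livers were similar in both arms, while 36 of 49 zileuton livers were above the vehicle median. Its log2 fold change was 0.20 ± 0.05 (edgeR, adjusted p = 0.00292), and it was above 0 in 8 of 8 runs. Uqcrfs1, the Rieske iron-sulfur protein, averaged 272 ± 32.4 CPM with zileuton and 252 ± 26.4 CPM with vehicle, a log2 fold change of 0.11 ± 0.03 (edgeR, adjusted p = 0.0120). The core proteins did not pass, with Uqcrc1 at 0.12 ± 0.05 (edgeR, adjusted p = 0.0562) and Uqcrc2 at 0.05 ± 0.03. Uqcrc1 lay near the threshold, and edgeR called it in 23 of the 90 fits that each left out 1 animal. DESeq2 called 3 subunits of complex III and limma-voom 2. Uqcrh, the hinge protein, was at −0.05 ± 0.05.

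**Figure D2:**
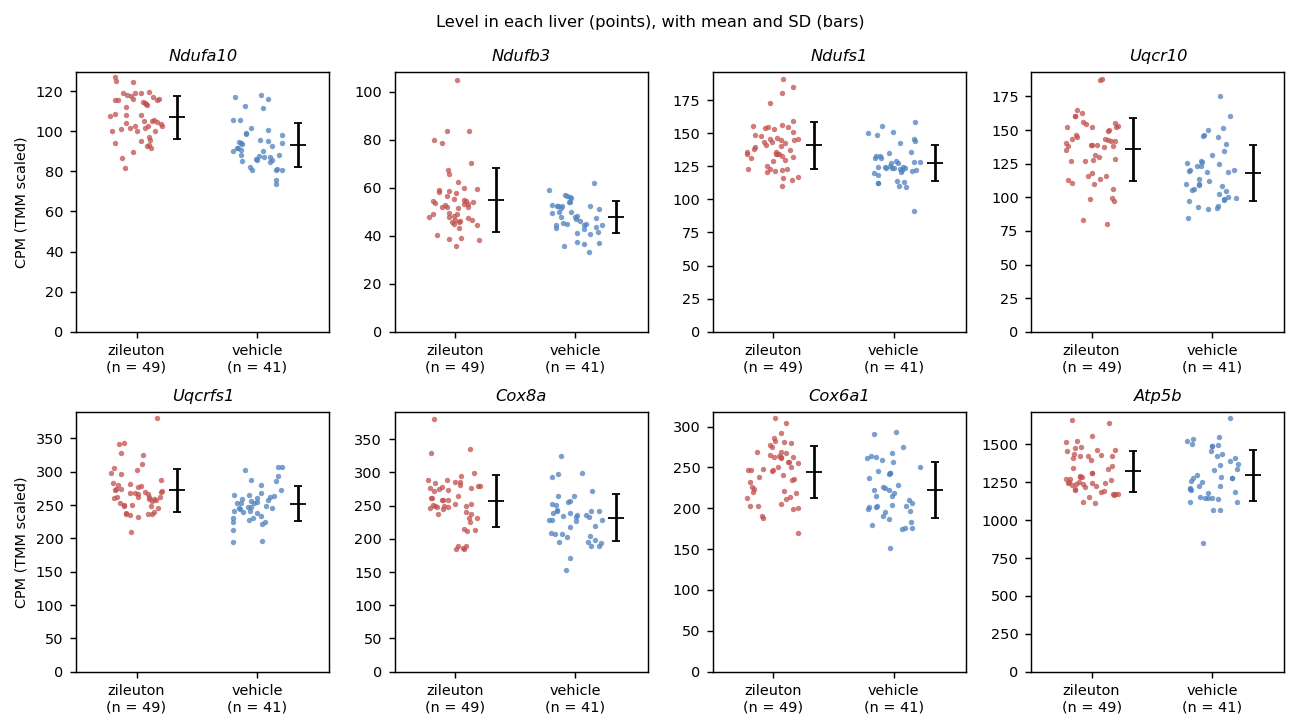
Level in TMM-scaled CPM (y axis, from 0) of 7 members called higher and of Atp5b, which was not called, in each of 49 zileuton livers (left, red) and 41 vehicle livers (right, blue). Points are animals and bars are mean and SD. Every pair of arms overlaps, and the zileuton mean of Ndufa10 is 107 CPM against 93.2 CPM with vehicle.

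Complex IV, cytochrome c oxidase, held the largest share of calls, with 6 of its 15 tested members higher and 1 lower, or 46.7% against the background of 29.3%. No test of that share was made, and DESeq2 and limma-voom each called 6. The 15 include Ndufa4 and Ndufa4l2, which are counted in complex IV despite their symbols. Of the calls, that of Cox7a1 rested on vehicle replicate 8, and that of Cox7c on few counts beside near-identical copies, as described below. The median log2 fold change of complex IV was 0.11, and 14 of 15 values were above 0. The members called higher were Cox6a1, Cox6b1, Cox7a2, Cox7a2l, Cox7c and Cox8a, all of them small nuclear-encoded subunits around the catalytic core or, in Cox7a2l, a factor that joins complexes III and IV in supercomplexes. Cox8a had a lowest, median and highest level of 185, 258 and 380 CPM with zileuton, and 154, 234 and 325 CPM with vehicle. The zileuton livers reached higher at both ends, with wide overlap. Its log2 fold change was 0.15 ± 0.05 (edgeR, adjusted p = 0.0108), and 38 of 49 zileuton livers were above the vehicle median. Cox6a1 ran from 169 to 310 CPM with a median of 247 with zileuton, and from 152 to 293 CPM with a median of 218 with vehicle. The arms again overlapped, and its log2 fold change was 0.14 ± 0.04 (edgeR, adjusted p = 0.0123).

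Cox6b1, Cox7a2l and Cox7a2 were also called higher in complex IV. Cox6b1, which faces the intermembrane space, averaged 181 ± 34.8 CPM with zileuton and 164 ± 26.1 CPM with vehicle, a log2 fold change of 0.15 ± 0.05 (edgeR, adjusted p = 0.0225). Cox7a2l averaged 105 ± 14.5 CPM with zileuton and 97.1 ± 11.7 CPM with vehicle, a log2 fold change of 0.12 ± 0.04 (edgeR, adjusted p = 0.0228). Cox7a2, the liver form of subunit 7a, averaged 119 ± 19.1 CPM with zileuton and 110 ± 12.7 CPM with vehicle, a log2 fold change of 0.11 ± 0.04 (edgeR, adjusted p = 0.0376). The call of Cox7a2 was lost when any 1 of 9 single animals was left out, with an adjusted p of up to 0.0570. Cox5a and Cox7b, named after their values were seen, stood at 0.00 ± 0.04 and 0.01 ± 0.04 on the log2 scale. Differences between the subunits of this enzyme were not tested. Cox4i1, the most abundant complex IV transcript per length at 540 ± 76.6 CPM per kb with zileuton and 513 ± 70.8 CPM per kb with vehicle, had a log2 fold change of 0.07 ± 0.04 (edgeR, adjusted p = 0.201). Ndufa4, next per length at 489 ± 89.7 CPM per kb with zileuton and 452 ± 67.3 CPM per kb with vehicle, was not called over all animals. With 1 animal left out at a time, its log2 fold change lay between 0.09 and 0.13, and edgeR called it in 6 of 90 fits.

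Complex V had 1 of 15 subunits called, a share of 6.67%. That gene, Atp5c1, encodes the gamma subunit, the stalk that turns inside the catalytic head. Atp5c1 had a lowest, median and highest level of 212, 262 and 345 CPM with zileuton, and 192, 251 and 305 CPM with vehicle. The arms overlapped over most of their range, and the log2 fold change was 0.10 ± 0.03 (edgeR, adjusted p = 0.0163). The catalytic beta subunit gene Atp5b was the most abundant member per length, at 690 ± 70.6 CPM per kb with zileuton and 676 ± 87.03 CPM per kb with vehicle. Its log2 fold change was 0.03 ± 0.04, with 25 of 49 zileuton livers above the vehicle median. Atp5g3 came next at 660 ± 104 CPM per kb with zileuton and 632 ± 88.1 CPM per kb with vehicle, a step from Atp5b smaller than the spread between animals. Atp5a1, which encodes the alpha subunit, had a log2 fold change of 0.07 ± 0.04 (edgeR, adjusted p = 0.224). Atp5e, the epsilon subunit, was the lowest estimate of the complex at −0.10 ± 0.06.

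The c ring that carries protons through the ATP synthase is encoded by 3 genes for an identical mature protein, and their proportions were similar in both arms. Per length, Atp5g3 gave 78.1% ± 1.51 of the summed level with zileuton and 78.0% ± 1.51 with vehicle. Atp5g2 gave 17.7% ± 1.40 with zileuton and 17.5% ± 1.24 with vehicle, and Atp5g1 gave 4.23% ± 0.447 with zileuton and 4.44% ± 0.529 with vehicle (SD, n = 49 and 41). The log2 fold changes of the 3 genes were between −0.01 and 0.07 and none was called.

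Muscle isoforms of complex IV were at low levels in liver, apart from 2 libraries. Cox6a2, Cox7a1 and Cox8b are the heart and skeletal muscle forms whose liver partners are Cox6a1, Cox7a2 and Cox8a. Zileuton replicate 24 held 20.3 CPM of Cox6a2, 8.25 CPM of Cox8b and 5.48 CPM of Cox7a1. Vehicle replicate 8 held 78.5 CPM of Cox6a2, 25.99 CPM of Cox8b and 19.1 CPM of Cox7a1. In all other livers Cox6a2 reached at most 0.147 CPM in either arm, and Cox8b at most 0.144 CPM with zileuton and 0.276 CPM with vehicle. The same 2 libraries held the skeletal muscle genes: the summed level of 9 markers was 2411 CPM in zileuton replicate 24 and 4412 CPM in vehicle replicate 8, against at most 1.03 CPM in the other zileuton livers and 1.18 CPM in the other vehicle livers. The muscle actin Acta1 alone was at 985 CPM in zileuton replicate 24 and 1469 CPM in vehicle replicate 8.

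The 1 member called lower rested on vehicle replicate 8. Cox7a1 had a lowest, median and highest level of 0.162, 0.617 and 5.48 CPM with zileuton, and 0.373, 0.751 and 19.1 CPM with vehicle. Outside the highest liver of each arm, the values overlapped widely. The log2 fold change of Cox7a1 was −0.69 ± 0.24 (edgeR, adjusted p = 0.0228) over all animals, −0.06 without vehicle replicate 8 (adjusted p = 0.840) and −0.25 without both muscle-bearing libraries (adjusted p = 0.169). Without those 2 libraries, Cox7a2 stood at 181 CPM per kb with zileuton and 167 CPM per kb with vehicle, and Cox7a1 at 1.40 CPM per kb with zileuton and 1.68 CPM per kb with vehicle. Cox4i2, the lung and hypoxia form of subunit 4, was at 0.268 CPM per kb with zileuton and 0.316 CPM per kb with vehicle, while Cox4i1 was at 540 CPM per kb with zileuton and 512 CPM per kb with vehicle.

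**Figure D3:**
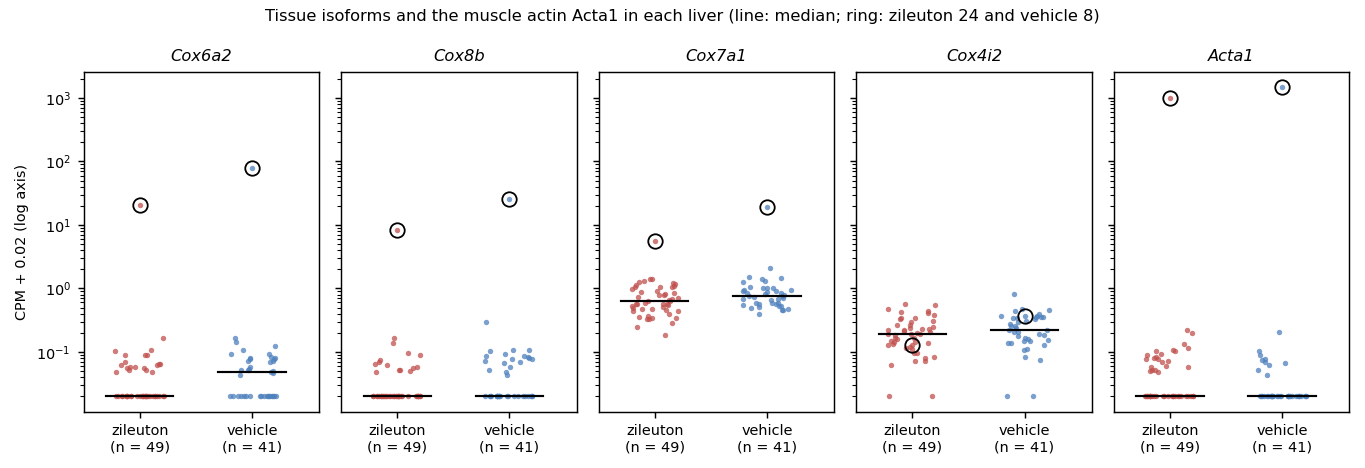
Level of 4 complex IV isoforms that liver barely uses and of the muscle actin Acta1 in each liver (y axis, CPM + 0.02 on a log scale; zileuton left, vehicle right; line, median). Rings mark zileuton replicate 24 and vehicle replicate 8, which stand far above all other livers for Cox6a2, Cox8b, Cox7a1 and Acta1 but not for Cox4i2.

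Cox6b2, known as the testis form of subunit 6b, fell into separate levels in both arms. With zileuton, 33 livers had at most 0.879 CPM and 16 livers at least 2.08 CPM, and with vehicle, 28 livers had at most 0.579 CPM and 13 livers at least 1.81 CPM. The highest livers reached 23.4 CPM with zileuton and 11.8 CPM with vehicle. Each arm held both kinds of liver. The mean was 3.55 ± 5.83 CPM with zileuton and 2.07 ± 3.31 CPM with vehicle, and the log2 fold change of 0.78 ± 0.52 did not pass (edgeR, adjusted p = 0.270), although 41 of 49 zileuton livers were above the vehicle median. Cox6b1 remained far higher, at 293 CPM per kb with zileuton and 265 CPM per kb with vehicle, while Cox6b2 was at 6.19 CPM per kb with zileuton and 3.54 CPM per kb with vehicle (without the 2 libraries that held muscle transcripts).

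Ndufs5 and Cox7c were the members with a near-identical pseudogene in the table, and both were listed far below most other subunits of their complexes. The copies are processed pseudogenes, sequences copied back into the genome from a spliced transcript. Ndufs5 (chromosome 4, 123712710 to 123718202) shares 99.4% of 319 bases from its start codon with BC002163 (chromosome 16, 42955631 to 42955949), with the differences T81C and A105G, where Ndufs5 has the first base and positions count from the A of the start codon. Cox7c (chromosome 13, 86044816 to 86046904) is identical to Gm12338 (chromosome 11, 75599763 to 75599954) over its 192-base coding sequence, and differs from Gm10012 (chromosome 17, 25901856 to 25902227) by G30C and G107A, counted in the same way. Coordinates are mm10. The sequences show how little separates a read of the gene from a read of the copy, and capitals mark the differing bases. Of the shared stretch of Ndufs5, the first 300 bases are given.
Ndufs5: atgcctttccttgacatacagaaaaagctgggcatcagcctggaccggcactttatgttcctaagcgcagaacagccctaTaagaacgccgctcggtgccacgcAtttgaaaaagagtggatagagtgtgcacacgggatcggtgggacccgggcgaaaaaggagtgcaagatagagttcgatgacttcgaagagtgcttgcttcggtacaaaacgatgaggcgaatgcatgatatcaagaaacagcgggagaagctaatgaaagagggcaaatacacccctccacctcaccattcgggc
BC002163: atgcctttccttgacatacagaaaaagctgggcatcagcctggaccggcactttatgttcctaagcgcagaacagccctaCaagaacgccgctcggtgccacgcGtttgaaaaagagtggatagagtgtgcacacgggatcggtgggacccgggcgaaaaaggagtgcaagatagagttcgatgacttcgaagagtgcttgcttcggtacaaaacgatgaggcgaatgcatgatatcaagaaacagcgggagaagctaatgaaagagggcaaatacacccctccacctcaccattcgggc
Cox7c: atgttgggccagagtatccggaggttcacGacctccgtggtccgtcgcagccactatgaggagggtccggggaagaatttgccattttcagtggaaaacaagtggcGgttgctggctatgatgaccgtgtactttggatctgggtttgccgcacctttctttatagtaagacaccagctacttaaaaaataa
Gm10012: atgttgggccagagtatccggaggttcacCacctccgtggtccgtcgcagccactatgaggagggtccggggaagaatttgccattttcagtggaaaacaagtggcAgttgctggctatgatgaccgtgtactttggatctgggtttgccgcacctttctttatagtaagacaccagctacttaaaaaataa
Gm12338: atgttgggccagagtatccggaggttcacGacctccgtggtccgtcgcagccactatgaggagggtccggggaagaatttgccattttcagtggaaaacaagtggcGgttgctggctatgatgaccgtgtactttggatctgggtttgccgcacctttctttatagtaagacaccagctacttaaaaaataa

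The counts fell mostly on the copies. Ndufs5 averaged 2.01 ± 1.30 CPM with zileuton and 1.62 ± 1.097 CPM with vehicle, while BC002163 averaged 70.2 ± 10.8 CPM with zileuton and 65.6 ± 11.9 CPM with vehicle. Cox7c averaged 3.00 ± 1.39 CPM with zileuton and 2.22 ± 0.774 CPM with vehicle, while Gm12338 averaged 205 ± 33.1 CPM with zileuton and 191 ± 27.1 CPM with vehicle. How the deposited counting placed reads that match both is not given in the sources used here, so the level of either gene on its own is uncertain. The call of Cox7c, at a log2 fold change of 0.43 ± 0.12 (edgeR, adjusted p = 0.00376), therefore concerns the few counts assigned to it. With Gm10012 and Gm12338 added to Cox7c, the log2 fold change was 0.14 ± 0.05 (edgeR, adjusted p = 0.0314). Gm12338, which gave most of that sum, was not called on its own, at 0.10 ± 0.05 (edgeR, adjusted p = 0.0815), nor was Gm10012, at 0.66 ± 0.40 (edgeR, adjusted p = 0.214). The summed level was 221 ± 40.3 CPM with zileuton and 202 ± 29.8 CPM with vehicle. Ndufs5 with BC002163 added had a log2 fold change of 0.10 ± 0.05 (edgeR, adjusted p = 0.0946) and was not called, as it was not on its own at 0.31 ± 0.33.

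Individual livers also split into separate levels of Ndufs5 and of Gm10012, and the cause was not tested. In Ndufs5, 9 zileuton livers had at most 0.189 CPM and the other 40 at least 1.14 CPM, and 9 vehicle livers had at most 0.0972 CPM and the other 32 at least 1.02 CPM. In Gm10012, 13 zileuton livers were at 30.6 CPM or more and the other 36 at 6.24 CPM or less, and 6 vehicle livers were at 29.3 CPM or more and the other 35 at 8.38 CPM or less. The gaps were therefore present in both arms, while BC002163 ran from 52.2 to 95.9 CPM with zileuton and from 48.8 to 94.8 CPM with vehicle, and Gm12338 from 151 to 303 CPM with zileuton and from 143 to 289 CPM with vehicle, with no such gap in the plot of the copies by animal.

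**Figure D4:**
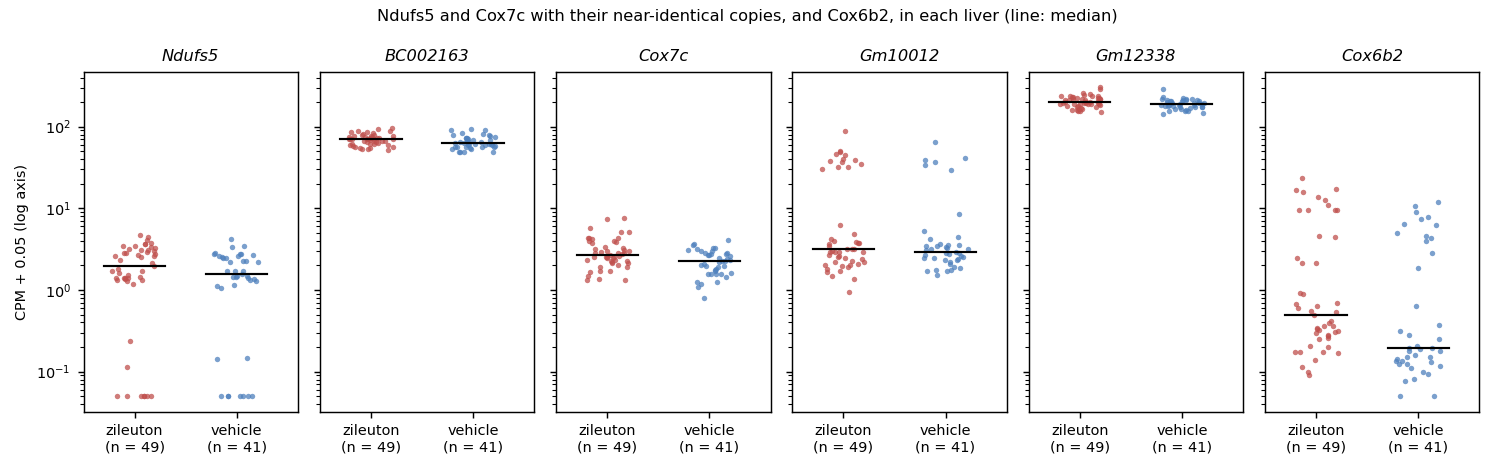
Level of Ndufs5 and Cox7c with the copies BC002163, Gm10012 and Gm12338, and of Cox6b2, in each liver (y axis, CPM + 0.05 on a log scale; zileuton left, vehicle right; line, median). BC002163 and Gm12338 lie near 70 and 200 CPM with little spread, whereas Ndufs5, Gm10012 and Cox6b2 each split into separate levels in both arms.

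Other members overlap a neighbour or have a pseudogene that is not in the table. Ndufa13 shares 375 exonic bases with Tssk6, Uqcrc2 shares 507 with Pdzd9, and Ndufs1 shares 147 with the noncoding RNA gene Ino80dos. The kit used does not mark strand, so reads from such stretches cannot be assigned to 1 gene with certainty.

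Within each arm the members went up and down together from animal to animal. Over the 75 members of at least 20 CPM, the median Pearson correlation of log2 CPM between pairs was 0.65 across the 49 zileuton livers and 0.54 across the 41 vehicle livers, against 0.01 in each arm over all pairs of 5255 genes of that level. The movement was not limited to the members: their mean log2 CPM correlated with that of 60 mitochondrial ribosome genes at a Pearson r of 0.89 with zileuton and 0.88 with vehicle, and with that of 73 cytosolic ribosomal genes at 0.65 with zileuton and 0.60 with vehicle (Spearman's rho 0.87 with zileuton and 0.82 with vehicle, and 0.66 with zileuton and 0.54 with vehicle). Without the 2 livers farthest from the median of the members' mean in each arm, r was 0.85 with zileuton and 0.84 with vehicle for the mitochondrial list, and 0.61 with zileuton and 0.63 with vehicle for the cytosolic list. Pairs within the same complex had a median of 0.66 with zileuton and 0.56 with vehicle, and pairs from different complexes had 0.64 with zileuton and 0.53 with vehicle. Sdha had the lowest mean correlation with the other members in zileuton livers, at 0.11, and Ndufaf4 the lowest in vehicle livers, at −0.23. The points share libraries and short, abundant transcripts, so the values describe these animals and carry no test. The shared movement was modest in size: the mean log2 CPM of the members spanned a 1.74-fold range with zileuton and a 1.58-fold range with vehicle.

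No member was called for a difference in spread between animals. When each animal's distance from the median of its arm was tested with limma, 0 of 85 members were called, against 0.0337% of 11857 genes, and 5 had an unadjusted p under 0.05. The lowest p was that of Ndufaf2, with a mean deviation of 0.27 with zileuton and 0.17 with vehicle on the log2 scale (limma, adjusted p = 0.425).

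No member was called by coat colour, which follows founder alleles in this stock. With treatment in the model, edgeR called 0 of 87 members between black and agouti coats, against 0.0453% of all genes, with 3 at an unadjusted p under 0.05. Between white and agouti coats it called 0, against 0.00755% of all genes, with 6 at an unadjusted p under 0.05, and limma-voom also called 0 in each contrast. The closest was Atp5a1, at a log2 fold change of 0.21 ± 0.06 in black over agouti coats (edgeR, adjusted p = 0.253). The interaction of treatment with coat colour called 0 members for black (background 0.00755%) and 0 for white (background 0.0302%), with 1 in each at an unadjusted p under 0.05. With 6 to 9 animals in each of the black and white groups, these contrasts had less precision than the main one.

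The shift was also computed within each run of animal numbers, which held between 2 and 12 animals of an arm. The median difference of mean log2 CPM over the 87 members, zileuton minus vehicle, was −0.01 in run 1, 0.14 in run 2, 0.10 in run 3, 0.09 in run 4, −0.02 in run 5, −0.01 in run 6, −0.06 in run 7 and 0.12 in run 8. The median was thus above 0 in runs 2, 3, 4 and 8 and below 0 in the other 4, with 24 of 87 members above 0 in run 7. An edgeR test of the interaction of treatment with run called 0 of 87 members, against 0.189% of all genes, and 1.15% of the members had an unadjusted p under 0.05, against 11.2% of all genes, so a difference in the shift between runs was not shown. With the run as a term, 17 members were called higher and 0 lower, a share of 19.5% against 30.5% of all genes tested. Among the called members, Ndufa10, Ndufs1, Uqcr10, Uqcrfs1 and Cox6b1 were higher with zileuton in 8 of 8 runs. So was Atp5g2, which was not called. The runs hold the same animals as the main test, so these directions are not separate support for its calls.

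**Figure D5:**
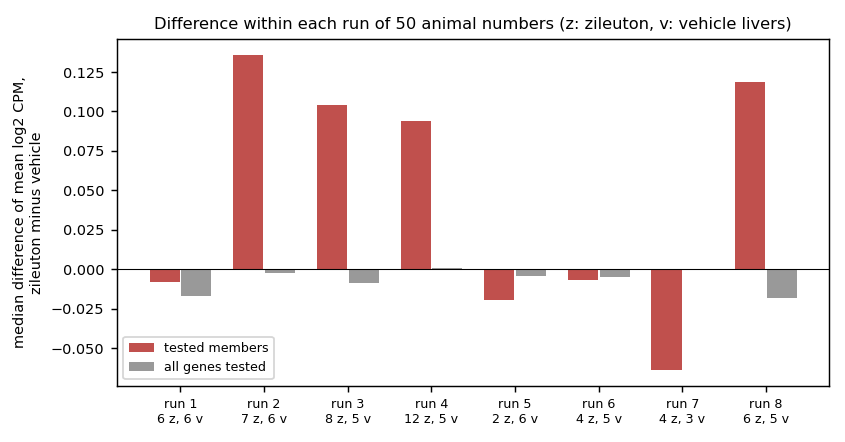
Median over the 87 tested members (red) and over all 13248 genes tested (grey) of the difference in mean log2 CPM, zileuton minus vehicle (y axis), within each run of 50 animal numbers (x axis, with the number of zileuton and vehicle livers). The members' median is between 0.09 and 0.14 in runs 2, 3, 4 and 8 and between −0.06 and −0.01 in the others, while the median of all genes stays near 0.

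With a term for position or clock phase in the model, no member was called. Positions did not overlap between the arms, and the clock score averaged 1.11 ± 1.17 with zileuton and −1.32 ± 1.27 with vehicle (SD). Either term therefore overlaps with treatment, and these fits cannot tell the 2 apart. Without such a term, the members' median SE was 0.05 and their median log2 fold change 0.04, with 67 of 87 values above 0. In that fit 23 members had an unadjusted p under 0.05 in edgeR. With position within the run as a term, edgeR called 0 members and 1.64% of all genes tested, with 14 members at an unadjusted p under 0.05. The median SE of the members was then 0.10, and the median log2 fold change was 0.13, with 80 of 87 values above 0. With a score of the clock genes as a term, edgeR called 0 members and 2.9% of all genes, with 6 members at an unadjusted p under 0.05, a median SE of 0.06 and a median log2 fold change of 0.02. Ndufa10 stood at 0.15 on the log2 scale with the position term (edgeR, adjusted p = 0.270) and 0.12 with the clock term (edgeR, adjusted p = 0.107).

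Genes that work beside the members, taken from lists drawn up with earlier results of these data known, gave the following counts. Of 10 other subunits and electron carriers, 2 were called higher and 0 lower, a share of 20% against the background of 29.3%. The larger was Atpif1, the inhibitor of ATP hydrolysis by the ATP synthase, at 24.9 ± 7.28 CPM with zileuton and 19.8 ± 5.16 CPM with vehicle, a log2 fold change of 0.33 ± 0.08 (edgeR, adjusted p = 0.000796). Cyc1 and Cycs, the cytochromes c1 and c, were at 0.02 ± 0.04 and 0.09 ± 0.06 and were not called. Of 44 assembly factors, 6 were higher and 5 lower, a share of 25% against the same background. Cox17, a copper chaperone for complex IV, had the largest rise at 0.28 ± 0.05 (edgeR, adjusted p = 2.99e-06), while Sco2, which inserts copper into the same enzyme, fell to 33.6 ± 11.8 CPM with zileuton, against 54.8 ± 16.8 CPM with vehicle (log2 fold change −0.70 ± 0.10, edgeR, adjusted p = 4.17e-08).

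Of 13 genes of coenzyme Q synthesis, 4 were higher and 1 lower, a share of 38.5% against the background of 29.3%. Coq10b, which binds coenzyme Q and aids its use in the chain, averaged 26.1 ± 12.9 CPM with zileuton and 14.1 ± 6.20 CPM with vehicle, a log2 fold change of 0.89 ± 0.15 (edgeR, adjusted p = 1.04e-06). Coq8a, an atypical kinase of the synthesis complex, averaged 482 ± 164 CPM with zileuton and 670 ± 139 CPM with vehicle, a log2 fold change of −0.48 ± 0.09 (edgeR, adjusted p = 1.33e-05). Of the 13 tricarboxylic acid cycle genes, 6 were higher and 0 lower, with a median log2 fold change of 0.12. Of 78 mitochondrial ribosome genes, 10 were higher and 6 lower, with Mrps36 at 0.26 ± 0.07 and Mrps27 at −0.17 ± 0.05. The shares called were 20.5% for the mitochondrial ribosome and 46.2% for the cycle, against the background of 29.3%.

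Of 15 regulators of mitochondrial genes, 2 were higher and 3 lower, a share of 33.3% against the background of 29.3%. Ppargc1b, a coactivator of mitochondrial and lipid genes, averaged 6.00 ± 2.32 CPM with zileuton and 3.57 ± 1.53 CPM with vehicle, a log2 fold change of 0.76 ± 0.12 (edgeR, adjusted p = 7.09e-07). Gabpb1, a subunit of the ETS-family factor GABP, was at −0.35 ± 0.05 (edgeR, adjusted p = 1.28e-08), and Nrf1, a factor for many respiratory chain genes that was named after its values were seen because its motif is searched below, was at −0.25 ± 0.04 (edgeR, adjusted p = 2.31e-06). Ppargc1a at 0.23 ± 0.11, Esrra at 0.11 ± 0.05 and Tfam at 0.03 ± 0.03 did not pass. Of 7 nucleotide and phosphate carriers, 4 were higher and 2 lower, a share of 85.7% against the same background. Ucp2, an inner membrane carrier, had a log2 fold change of 0.40 ± 0.12 (edgeR, adjusted p = 0.00748). Slc25a4, the muscle form of the ADP/ATP carrier, was at −0.91 ± 0.32 (edgeR, adjusted p = 0.0244) over all animals, 0.48 without vehicle replicate 8 (adjusted p = 0.0298) and 0.05 without both muscle-bearing libraries (adjusted p = 0.631).

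Promoters of 75 of the 90 members were in the RefSeq table (GRCm38.p6, 250 bases before to 50 after the gene's start). The motifs were searched as exact letters on both strands: the NRF1 palindrome, CCGGAAGT for GABP and other ETS factors, the YY1 motif and TCAAGGTCA for ERRalpha. No promoter of a member held more than 1 of these motifs. The NRF1 letters were in 7 member promoters (9.33%) and in 1.07% of 27025 genes, and the YY1 letters in 6 (8.0%) and 0.995%. The ETS letters were in 5 (6.67%) and 4.31%, and the ERRalpha letters in 2 (2.67%) and 0.466%. Of the 12 promoters of members called higher, 1 held the NRF1 letters and 1 the ETS letters. Those 2, of Cox6a1 and Cox8a, are printed from the upstream end with the matched letters in capitals; Cox6a1 is at chr5:115348909-115349208 and Cox8a at chr19:7217567-7217866, both on the minus strand. The Cox8a promoter holds the ETS letters in 2 places, read on the opposite strand.
Cox6a1: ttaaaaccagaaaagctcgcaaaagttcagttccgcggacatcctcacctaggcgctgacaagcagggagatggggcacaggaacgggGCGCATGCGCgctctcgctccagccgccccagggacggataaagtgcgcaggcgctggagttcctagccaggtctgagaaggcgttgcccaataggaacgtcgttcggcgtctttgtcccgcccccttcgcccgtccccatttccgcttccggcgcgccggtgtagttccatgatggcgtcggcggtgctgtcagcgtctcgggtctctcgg
Cox8a: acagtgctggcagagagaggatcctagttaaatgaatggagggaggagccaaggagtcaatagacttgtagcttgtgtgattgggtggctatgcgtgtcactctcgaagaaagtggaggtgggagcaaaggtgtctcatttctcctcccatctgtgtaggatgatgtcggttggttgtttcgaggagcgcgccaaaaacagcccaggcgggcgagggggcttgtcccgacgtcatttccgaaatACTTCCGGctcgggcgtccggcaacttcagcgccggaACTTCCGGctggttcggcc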

How the data were processed

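Total RNA from about 25 mg of each of 90 livers went into TruSeq RNA libraries for Illumina sequencing, per the labels' protocols. Alignment to mm10 and the tools STAR, Partek and DESeq2 are listed, without versions, per the submitters' processing notes. The authors deposited a table of estimated counts per gene, of which 77.2% are whole numbers, and a table of the same counts divided by a size factor per library, a normalized signal. The sources used here do not say how reads that match several places were counted. The members and the gene lists were chosen with earlier results of these data known.

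The expected counts as deposited were rounded to whole numbers, scaled by TMM, filtered with filterByExpr and tested with edgeR 4.0.16 (R 4.3.3, quasi-likelihood F test, robust) over 13248 genes, with Benjamini-Hochberg adjustment and a threshold of 0.05. Spread was tested with limma 3.58.1 on genes whose mean log2 CPM was not below 0. DESeq2 1.42.0, limma-voom and log2 of the deposited normalized signal with a pseudocount of 1 or 0.5 were alternatives. Log2 CPM used a prior count of 2. The edgeR and limma steps were tested on simulated data. Gene positions and lengths came from GENCODE release 21 (98.1% of symbols matched), taking the longest protein-coding transcript, and copies were sought with BLAST 2.17.0 at 97% identity over at least 100 bases. Members were named by level, size of change, p, variation and tissue isoform. Ndufs5, Ndufa3, Ndufc1, Cox5a, Cox7b, Atp5e, Uqcrc1, Uqcrc2, Ndufa13 and the complex I core subunits were named after their values were seen. The median depth was 25535799 counts per library. Coat colour, run of animal numbers, library code, position within the run and a clock score were each added as terms in turn, and each animal and each run was left out once. Some genes that the counts include are not reported here by name.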

Additional observations from a re-analysis of the deposited data

How the results depend on the processing

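Counts are members called higher and lower, 13 and 1 over all animals. The higher count was 0 with position within the run as a term, 0 with the clock score as a term, 27 without the 9 libraries of lowest total, 22 with a GC and length trend removed, 7 in agouti coats only and 8 without run 2. In either direction, the shares of members and of all genes called were 32.2% and 31% without the 9 libraries. They were 26.4% and 31.7% with the trend removed, 9.2% and 21.4% in agouti coats and 9.2% and 24.8% without run 2. The lower count was 3 with no filter on low counts. It was 0 under DESeq2, limma-voom, the deposited normalized values at either pseudocount, the run, library code, position or clock terms, without vehicle 8, without both muscle-bearing libraries (chosen after seeing the data) and without run 2. Leaving out 1 animal gave 12 to 17 higher and 0 to 1 lower, with 0 only without vehicle 8. The other alternatives gave 10 to 17 higher, and the median log2 fold change of the members stayed between 0.02 and 0.13 under every alternative run. Cox7a1 turned to 0.079 with the position term (adjusted p = 0.962). Of the named members' values, 732 kept direction and side of the threshold, 55 lost a call, 12 gained one and 28 changed sign, Cox7a1 being the 1 called member among them. With the position term, the uncalled log2 fold changes of Atp5s (−0.21), Cox6b2 (−0.57), Sdha (−0.011), Uqcrh (0.12), Ndufaf1 (0.050), Ndufaf8 (0.083) and Atp5g1 (0.13) changed sign. With the clock term, Atp5a1 (−0.040), Atp5s (−0.14), Ndufaf7 (−0.020), Ndufaf8 (0.010) and Sdhb (−0.022) did. Atp5g1 was 0.0063 with the run term, 0.056 with the library code, 0.044 without the 9 libraries of lowest total, up to 0.013 without a run and between −0.019 and 0.012 without 1 animal. Ndufaf2 was −0.0070 under limma-voom, −0.0013 and −0.0014 on the deposited normalized values, −0.011 with the library code, −0.00095 in agouti coats and −0.0035 with the trend removed. Ndufaf8 was 0.018 without the 9 libraries. With a run left out, Ndufa2 reached −0.0070, Ndufaf7 −0.0061 and Sdhd −0.033. Adding the copies to Ndufs5 and Cox7c was also chosen after seeing the data. The causes were not tested. Vehicle 8 held 19.1 CPM of Cox7a1. No paired analysis was possible because the labels give no replicate numbers that match animals across the arms; the run, which holds both arms, was fitted as a term instead. Depth limits Cox4i2, Cox6a2 and Cox8b, which were too low to test.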
